A study of Mus musculus with 6 samples.

Results

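The tumour necrosis factor (TNF) superfamily was taken as the rows of the deposited count table whose symbol begins with Tnfsf (ligands) or Tnfrsf (receptors) followed by a digit. This gave 31 of 33924 gene rows, 11 ligands and 20 receptors, and each of the 31 symbols is a protein-coding gene in the GENCODE M21 annotation. The RNA-seq data come from mouse acute myeloid leukaemia cells driven by MLL-AF9, a fusion oncogene delivered by retrovirus. The 3 LSK-derived libraries (LSK 44, LSK 45, LSK 46) descend from LSK cells, a marrow population rich in stem cells. The 3 GMP-derived libraries (GMP 5, GMP 11, GMP 19) descend from granulocyte-macrophage progenitors. Both groups share all else in the labels. The transformed cells were expanded, transplanted with wild-type support marrow into C57BL/6 mice irradiated with 950 cGy, recovered from the marrow of moribund animals, and cultured with 20 ng/mL SCF, 10 ng/mL IL-3 and 10 ng/mL IL-6. The labels give no age or sex of the mice and do not say whether each library had its own transduction or mouse. The p-values therefore rest on the spread among 6 libraries alone, and that spread may be technical.

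TNF family ligands are trimeric proteins, most of them anchored in the membrane and some released by proteases. They cluster receptors on the same or a neighbouring cell. Receptors with a cytoplasmic death domain can recruit FADD and caspase-8 to start apoptosis, or RIPK1 and TRAF proteins to activate NF-kB. Receptors without one signal through TRAF proteins or act as decoys. By its title, the series is about how the cell of origin of a leukaemia relates to apoptotic priming and to the response to LSD1 inhibition, and no library is labelled as drug-treated.

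Total counts ran from 16640929 to 33885428 per library, so 3 counts in a library amount to 0.0885 to 0.180 counts per 1000000 (CPM). Of 31 members, 21 had enough counts to be tested and 10 did not. With edgeR's quasi-likelihood test over 13406 genes and an adjusted p below 0.05, 8 members were called, 3 higher in the LSK-derived libraries and 5 higher in the GMP-derived ones. That is 38.1% of the tested members, and 25.7% of all tested genes were called (11.8% higher in LSK-derived, 13.9% higher in GMP-derived). The median log2 fold change (positive where LSK-derived libraries were higher, here and below) was -0.04 over the tested members and 0.01 over all tested genes. The filter needed about 0.400 CPM in 3 libraries, and 4 tested members met it in all libraries of 1 group only (Tnfsf11, Tnfsf8, Tnfsf13b and Tnfsf9). Tnfsf11, Tnfsf8 and Tnfsf13b were called, and each passed the filter through the group where it was higher. The filter thus favoured a difference in such members, though it did not require one. Of the other 17 tested members, 5 were called. Groups did not overlap in 11 of the 21 tested members, against 45.4% of all tested genes. The count of called members fell to 4 without LSK 44 and to 5 without LSK 46 or GMP 19, and was 10 without GMP 5. Calls over all tested genes shifted too, from 3444 of 13406 with every library to 1830 of 13712 without LSK 44. They were 1750 of 13696 without LSK 46, 2350 of 13668 without GMP 19 and 3467 of 13715 without GMP 5.

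**Figure D1:**
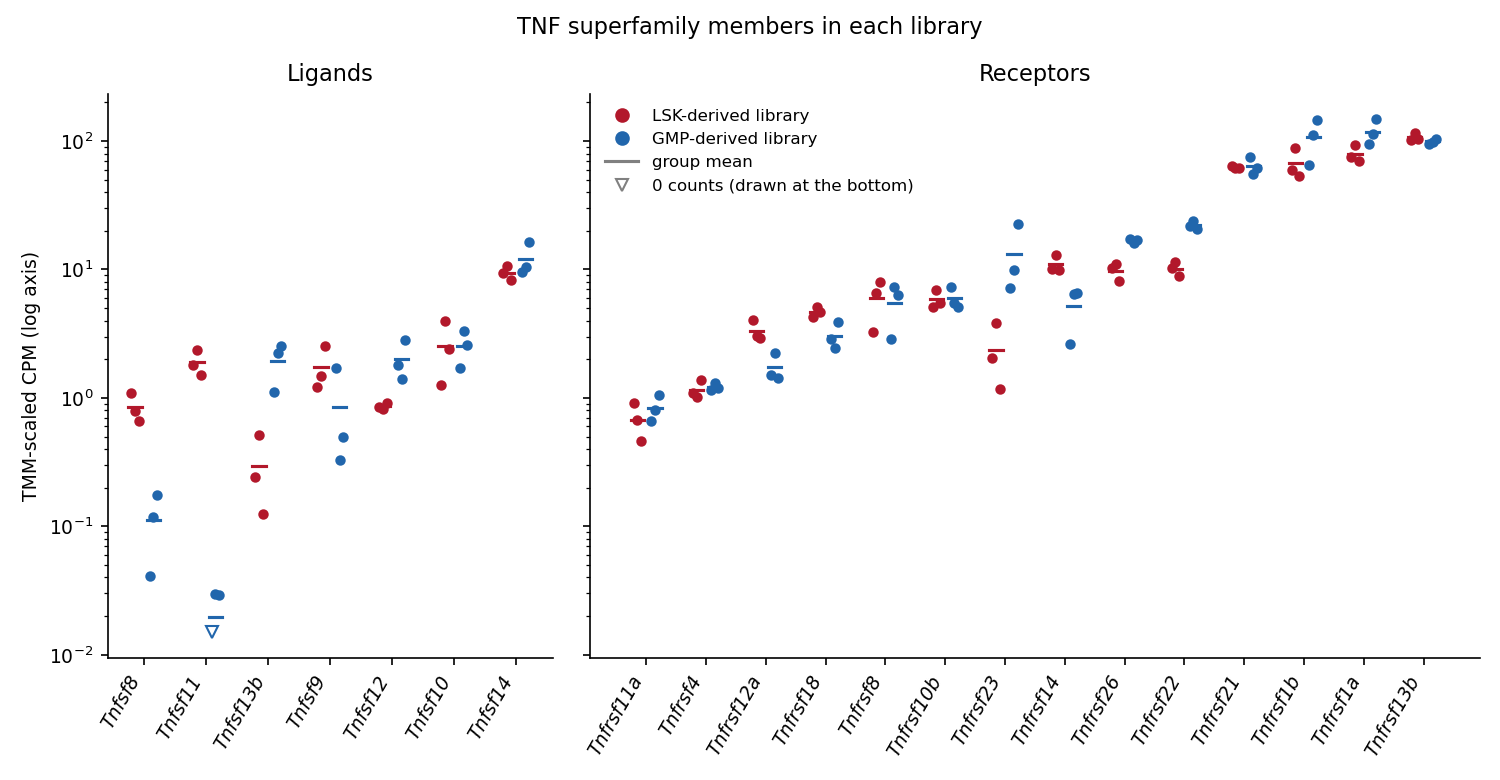
Each of the 21 tested members is plotted by library, with TMM-scaled CPM on a log axis, ligands on the left and receptors on the right, red for LSK-derived and blue for GMP-derived libraries and short lines for group means. Tnfsf11 is between 1.5 and 2.35 CPM in the LSK-derived libraries and at or below 0.0297 CPM in the GMP-derived ones, while the red and blue points of Tnfrsf21, Tnfrsf10b and Tnfsf10 lie among each other.

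Among ligands, Tnfsf11 stood furthest apart. It encodes RANKL, which drives osteoclast formation and lymph node development. It was at 1.81, 2.35 and 1.5 CPM in LSK-derived libraries 44, 45 and 46, from 126 counts in all, and had 0, 1 and 1 counts in GMP-derived libraries 5, 11 and 19. Every LSK-derived library thus lay above every GMP-derived one. The ratio of the LSK-derived mean to the pooled GMP-derived level was 87.1, with an exact 95% counting interval of 24.1 to 719 that takes in only the counting error of the GMP-derived group. The fitted log2 fold change was 6.17 ± 0.51 (approximate SE, derived from the test; edgeR adjusted p = 0.000680), and the call held in each of the 12 alternative fits. In bulk RNA, a difference in the number of cells that express a gene and one in its amount per cell cannot be told apart.

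The upstream sequences of Tnfsf11, Tnfsf8, Tnfrsf23 and Tnfsf13b are shown because these members had the 4 largest fitted differences in either direction. Each is the 250 bases before an annotated start in RefSeq (GRCm38.p6), written 5′ to 3′ on the gene's strand. Capitals mark matches on either strand to the motifs named after the sequences.
Tnfsf11, chr14:78308044-78308293, minus strand: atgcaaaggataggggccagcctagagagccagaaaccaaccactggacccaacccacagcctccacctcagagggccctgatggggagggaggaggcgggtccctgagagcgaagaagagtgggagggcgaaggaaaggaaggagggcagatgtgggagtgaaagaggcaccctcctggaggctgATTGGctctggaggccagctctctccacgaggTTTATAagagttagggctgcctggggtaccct
Tnfsf8, chr4:63861285-63861534, minus strand: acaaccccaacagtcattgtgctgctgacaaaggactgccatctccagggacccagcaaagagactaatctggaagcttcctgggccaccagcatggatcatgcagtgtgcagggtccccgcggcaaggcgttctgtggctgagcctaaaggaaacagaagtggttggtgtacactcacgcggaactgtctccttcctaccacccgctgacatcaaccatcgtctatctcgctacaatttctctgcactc
Tnfrsf23, chr7:143685876-143686125, minus strand: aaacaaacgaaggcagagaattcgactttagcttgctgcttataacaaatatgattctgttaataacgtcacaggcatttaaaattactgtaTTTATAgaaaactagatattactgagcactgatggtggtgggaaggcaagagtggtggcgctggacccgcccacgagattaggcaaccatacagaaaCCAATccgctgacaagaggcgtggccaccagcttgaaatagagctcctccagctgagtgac
Tnfsf13b (the more upstream of 2 starts), chr8:10006217-10006466, plus strand: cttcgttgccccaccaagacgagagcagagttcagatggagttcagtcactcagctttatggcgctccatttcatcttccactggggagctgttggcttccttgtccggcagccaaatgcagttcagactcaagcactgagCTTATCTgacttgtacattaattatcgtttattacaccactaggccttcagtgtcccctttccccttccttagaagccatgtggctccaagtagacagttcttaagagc

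The motifs searched on both strands were TATAAA (the TATA box), CCAAT (the CCAAT box), TGTGGT (the core bound by RUNX factors), GAGGAAGT (bound by PU.1), AGATAAG (bound by GATA factors) and the NF-kB consensus. In the Tnfsf11 window, TATAAA was matched at -32 from the start site and CCAAT at -64, both on the strand opposite to the gene. In the Tnfrsf23 window, CCAAT was matched at -61 on the gene's strand and TATAAA at -158 on the opposite strand. In the Tnfsf13b window shown, AGATAAG was matched at -109 on the opposite strand. The window of the other Tnfsf13b start, chr8:10006383-10006632, held none of the 6 motifs. The Tnfsf8 window held none of the 6 motifs. Over all 32851 RefSeq promoter windows of this length, 12.4% held TATAAA, 33.8% CCAAT, 14% TGTGGT, 2.44% GAGGAAGT, 2.74% AGATAAG and 7.25% the NF-kB consensus. Of the 28 windows of the 24 members with an entry, 4 held TATAAA, 3 CCAAT, 3 TGTGGT, 1 GAGGAAGT, 1 AGATAAG and 3 the NF-kB consensus. These matches describe the letters in the windows and no binding was measured.

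Tnfsf8, which encodes the ligand of CD30, was the other ligand higher in the LSK-derived libraries. It was at 1.09, 0.785 and 0.666 CPM in LSK-derived libraries 44, 45 and 46, against 0.0410, 0.119 and 0.176 CPM in GMP-derived libraries 5, 11 and 19, where it had 11 counts in all. The groups did not overlap, the fitted log2 fold change was 2.78 ± 0.46 (6.89-fold, adjusted p = 0.00697), and the call held in all 12 alternative fits. Both Tnfsf11 and Tnfsf8 are known from activated T cells, and RANKL also from osteoblasts and marrow stroma. Of 14 T and NK cell markers, Cd3e, Cd8b1, Ncr1 and Gzma had 0 counts in every library, and 12 were below 1 CPM in both group means. Their summed level was 7.80 to 9.50 CPM in LSK-derived and 7.69 to 7.95 CPM in GMP-derived libraries, most of it Lck. Icos and Klrb1c of that list were higher in the LSK-derived libraries, with 1.18 ± 0.822 against 0.174 ± 0.102 CPM and 0.734 ± 0.385 against 0.0236 ± 0.0212 CPM (mean ± SD, n = 3, LSK-derived first, here and below). Of 12 markers of stroma, osteoblasts and endothelium, 9 were below 1 CPM in both group means, and Col1a2 had 0 counts in every library. The summed level of those 12 was 323 to 523 CPM in LSK-derived and 339.7 to 418 CPM in GMP-derived libraries, most of it Pecam1 (244 ± 71.4 against 156 ± 38.3 CPM) and Runx2 (161 ± 29.3 against 188 ± 7.40 CPM). The called marker of that list, Pdgfrb, was higher in the GMP-derived libraries (2.63 ± 2.17 against 26.9 ± 11.6 CPM, adjusted p = 0.0206). The part of such cells in the values of Tnfsf11 and Tnfsf8 was not tested.

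Tnfsf13b and Tnfsf12 were the ligands higher in the GMP-derived libraries. Tnfsf13b encodes BAFF, a survival factor for B cells that myeloid cells produce. It was at 1.11, 2.23 and 2.52 CPM in GMP-derived libraries 5, 11 and 19 and at 0.242, 0.510 and 0.125 CPM in LSK-derived libraries 44, 45 and 46, with no overlap. The log2 fold change was -2.70 ± 0.54 (6.49-fold, adjusted p = 0.0130). It was -3.44 without LSK 45, the highest of the LSK-derived libraries, and the adjusted p was 0.0588 without LSK 44. Beside this gene, 13 monocyte and macrophage markers summed to 867 to 2085 CPM in LSK-derived and 647 to 1816 CPM in GMP-derived libraries, and 10 neutrophil markers to 48.3 to 179 CPM and 18.1 to 568 CPM. Both sums overlapped between groups, but single markers differed in either direction. Most of the neutrophil sum in the LSK-derived libraries was Mmp8 (105 ± 66.3 against 16.6 ± 14.1 CPM, adjusted p = 0.0912). S100a9, at 2.96, 0.275 and 0.666 CPM in LSK-derived libraries 44, 45 and 46 and 5.37, 20.1 and 195 CPM in GMP-derived libraries 5, 11 and 19, was called higher in the GMP-derived ones (log2 fold change -5.98, adjusted p = 0.0476). So was Ngp, at 2.54, 0.549 and 0.625 CPM and 3.57, 16.4 and 129.8 CPM in the same order (log2 fold change -5.45, adjusted p = 0.0490), while Ly6g was called in the opposite direction (3.21 ± 0.557 against 0.926 ± 0.396 CPM, adjusted p = 0.0142). Of the monocyte and macrophage markers, Cx3cr1 was called, also higher in LSK-derived cells (10.5 ± 7.26 against 0.647 ± 0.509 CPM, adjusted p = 0.0168). GMP 19 had the highest level of S100a9, Ngp and Tnfsf13b. The part of these cells in the level of Tnfsf13b was not tested.

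Tnfsf12 encodes TWEAK, and Tnfrsf12a encodes its receptor, which lacks a death domain and signals through TRAF proteins. The ligand was lower and the receptor higher in the LSK-derived libraries. Tnfsf12 was at 0.847, 0.824 and 0.916 CPM in LSK-derived libraries 44, 45 and 46 and at 1.80, 1.40 and 2.81 CPM in GMP-derived libraries 5, 11 and 19 (log2 fold change -1.21 ± 0.32, 2.32-fold, adjusted p = 0.0330). Tnfrsf12a was at 4.05, 3.06 and 2.92 CPM in the LSK-derived and 1.52, 2.23 and 1.44 CPM in the GMP-derived libraries in the same order (log2 fold change 0.94 ± 0.27, 1.92-fold, adjusted p = 0.0402). Neither gene's groups overlapped, but both calls lay close to the threshold. Each was lost without any single library other than GMP 11, with adjusted p between 0.0504 and 0.102 for Tnfsf12 and between 0.0666 and 0.128 for Tnfrsf12a. Both were also lost with the 1.5-fold minimum (adjusted p = 0.17 for Tnfsf12 and 0.294 for Tnfrsf12a). The call of Tnfsf12 was lost with limma voom (adjusted p = 0.0545) and with sample weights (adjusted p = 0.0527) as well. In the reference, Tnfsf12 shares 46.8% of its 50-base exon windows, and Tnfsf13 57.3%, with the readthrough gene Tnfsfm13. The deposited counts hold no row under that symbol, so nothing shows that reads were lost to it. The summed counts of Tnfsf12 and Tnfsf13 gave 1.09 ± 0.104 against 2.4 ± 0.920 CPM (log2 fold change -1.14 ± 0.32, adjusted p = 0.04). Tnfsf13, which encodes APRIL, had too few counts to be tested alone (0.228 ± 0.122 against 0.395 ± 0.262 CPM).

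**Figure D2:**
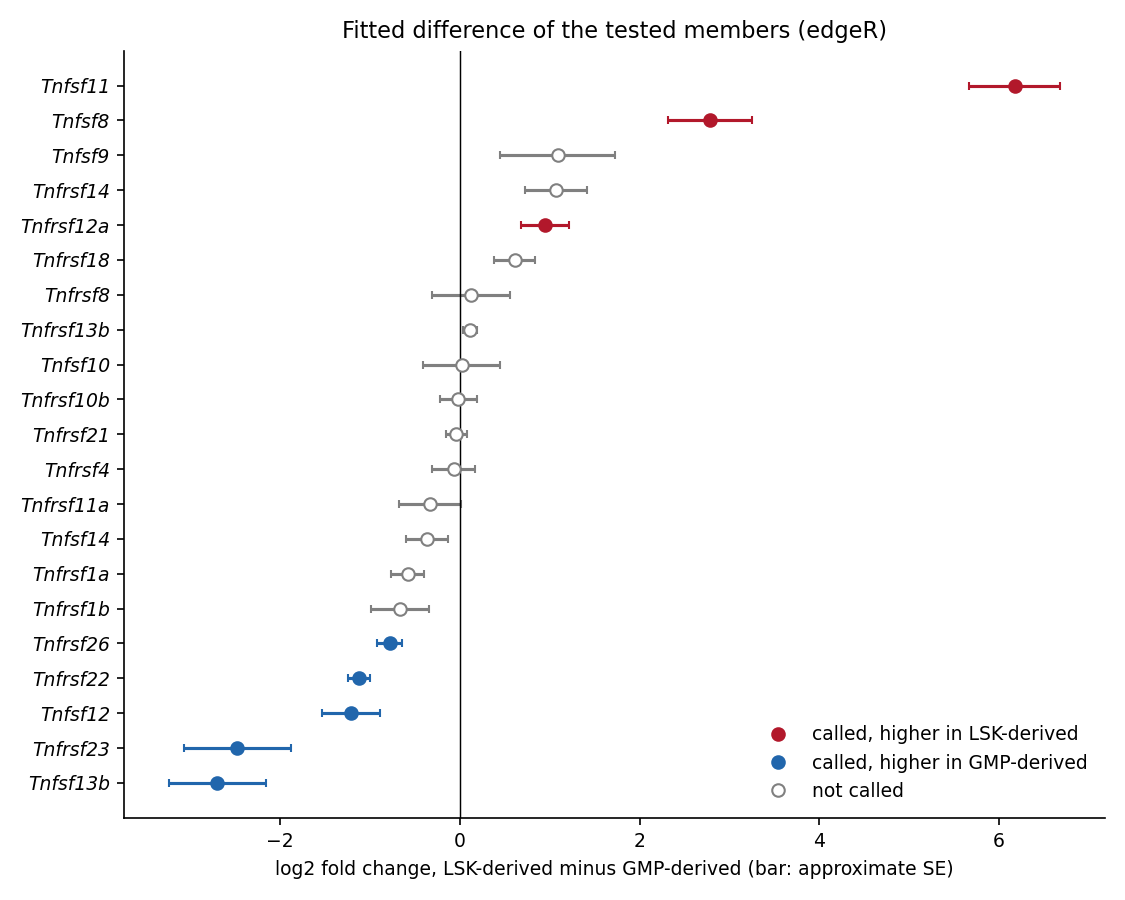
Fitted log2 fold changes, positive to the side of the LSK-derived libraries, of the 21 tested members are drawn on a linear axis with bars of 1 approximate SE, coloured by call. Tnfsf11 at 6.17 lies far to the right of the other members, and Tnfsf13b at -2.70 is the lowest.

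Among uncalled ligands, Tnfsf14 encodes LIGHT, which binds the receptors encoded by Tnfrsf14 and Ltbr. It was at 9.44, 10.7 and 8.25 CPM in LSK-derived libraries 44, 45 and 46 and at 9.51, 10.5 and 16.5 CPM in GMP-derived libraries 5, 11 and 19, where GMP 19 stood above the rest (log2 fold change -0.36 ± 0.23, adjusted p = 0.290). Tnfsf10 encodes TRAIL, the ligand of the death receptor encoded by Tnfrsf10b. Its values were 1.27, 3.96 and 2.42 CPM and 1.72, 3.29 and 2.58 CPM in the same order (log2 fold change 0.02 ± 0.43, adjusted p = 0.979), and the GMP-derived libraries lay inside the LSK-derived range. Tnfsf9 encodes a costimulatory ligand of activated antigen-presenting cells. It was at 1.21, 1.49 and 2.54 CPM and 1.72, 0.327 and 0.498 CPM (log2 fold change 1.09 ± 0.64, adjusted p = 0.253), so GMP 5 lay within the LSK-derived range and the other GMP-derived libraries below it. Without GMP 5 the log2 fold change was 2.07 (adjusted p = 0.0240), and with limma voom sample weights it was 1.80 (adjusted p = 0.0453). Gm11110, on the opposite strand, overlaps Tnfsf9 and was at 0.423, 0.392 and 1.00 CPM and 0.984, 0.237 and 0.205 CPM, again with GMP 5 the highest GMP-derived library. The sources used here do not say whether counting used the strand, and reads of such a pair cannot be told apart if it did not.

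Of the receptors, the 3 neighbours Tnfrsf22, Tnfrsf23 and Tnfrsf26 on chromosome 7 were all higher in the GMP-derived libraries. Tnfrsf22 and Tnfrsf23 encode decoy receptors that bind TRAIL and lack a death domain, and Tnfrsf26 is a related gene beside them. Tnfrsf22 was at 10.3, 11.3 and 8.87 CPM in LSK-derived libraries 44, 45 and 46 and at 21.9, 23.8 and 20.7 CPM in GMP-derived libraries 5, 11 and 19 (log2 fold change -1.12 ± 0.13, 2.18-fold, adjusted p = 0.00192). The groups were well apart and tight, and the call held in all 12 alternative fits. Tnfrsf26 was at 10.3, 10.9 and 8.12 CPM and 17.3, 16.1 and 17.1 CPM in the same order (log2 fold change -0.78 ± 0.14, 1.72-fold, adjusted p = 0.00915). Its call was lost only when a change of at least 1.5-fold was required (adjusted p = 0.240). Tnfrsf23 was at 2.06, 3.85 and 1.17 CPM and 7.13, 9.83 and 22.6 CPM (log2 fold change -2.48 ± 0.60, 5.56-fold, adjusted p = 0.0276), with GMP 19 far above the other GMP-derived libraries. Of 10 neutrophil markers, S100a9 and Ngp were called higher in the GMP-derived libraries, highest in GMP 19, and Ly6g higher in the LSK-derived ones. The part of such cells in the level of Tnfrsf23 was not tested. Without GMP 19 the log2 fold change of Tnfrsf23 was -1.84 (adjusted p = 0.0550), without LSK 45 it was -3.05, and without LSK 44 and LSK 46 the adjusted p was 0.0989 and 0.0802. Its call was also lost with no filter on low counts (adjusted p = 0.0644) and with the 1.5-fold minimum (adjusted p = 0.0776).

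Tnfrsf22 and Tnfrsf23 share exon sequence, 17.3% of the 50-base windows of the first and 18% of those of the second, so the authors' counting could have split or dropped reads between them. With any gene, Tnfrsf22 shared 27.4% of its windows, over 18 genes in all. Tnfrsf26 shared no window with another gene. In the reference an antisense gene, E230032D23Rik, overlaps exons of Tnfrsf23 and Tnfrsf26, but the deposited counts hold no row under that symbol. The summed counts of all 3 gave 22.3 ± 4.0 against 52.2 ± 7.32 CPM (log2 fold change -1.23 ± 0.16, adjusted p = 0.00310). The genes beside the cluster gave other values. Cars, on the Tnfrsf26 side, was lower in LSK-derived libraries by a smaller amount (105 ± 2.99 against 139 ± 6.40 CPM, log2 fold change -0.40 ± 0.06, adjusted p = 0.00599). Osbpl5, on the Tnfrsf23 side, was at 21.4 ± 2.85 against 25.2 ± 1.02 CPM (log2 fold change -0.23 ± 0.12, adjusted p = 0.187), and Nap1l4, beyond Cars, at 263 ± 12.8 against 240.1 ± 17.7 CPM (log2 fold change 0.13 ± 0.08, adjusted p = 0.252). Tnfrsf10b, the TRAIL receptor with a death domain, had overlapping groups, with 5.14, 6.95 and 5.50 CPM in LSK-derived libraries 44, 45 and 46 and 7.25, 5.49 and 5.10 CPM in GMP-derived libraries 5, 11 and 19 (log2 fold change -0.02 ± 0.21, adjusted p = 0.964).

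**Figure D3:**
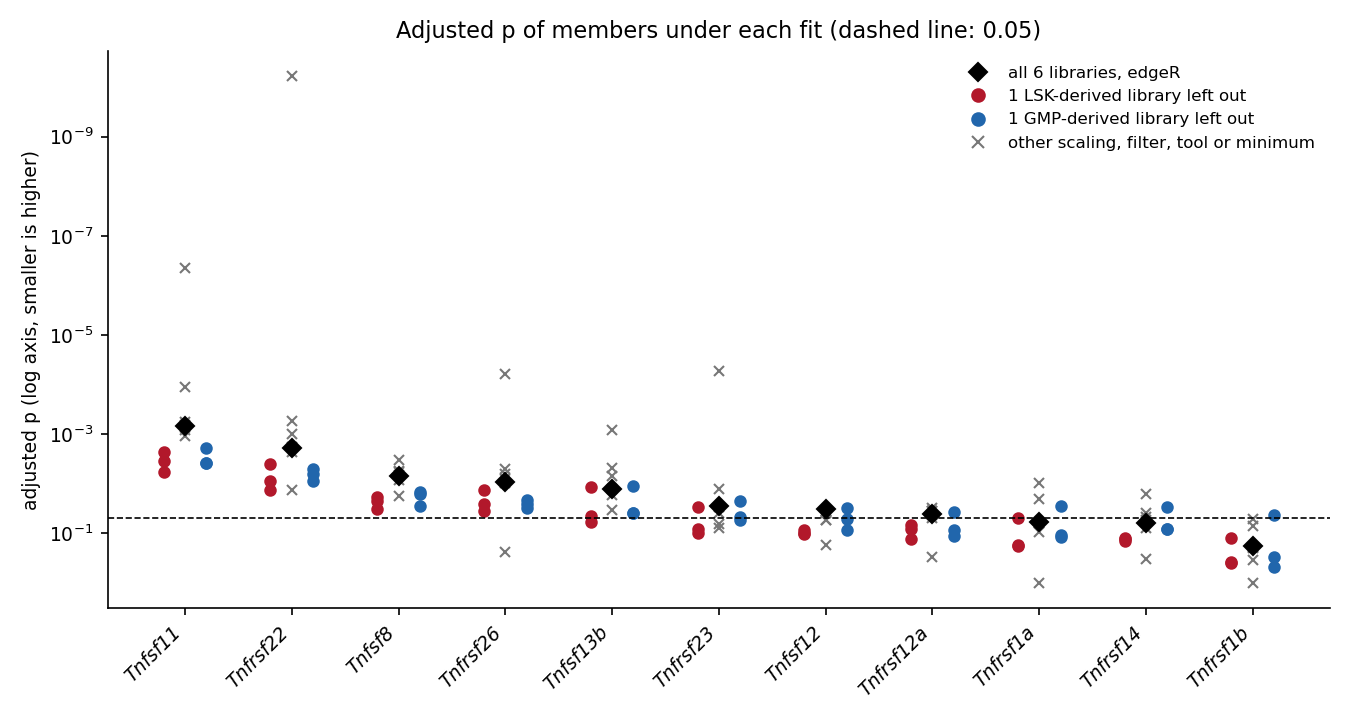
Adjusted p on a log axis, with smaller values higher, is drawn for the 8 called members and for Tnfrsf1a, Tnfrsf14 and Tnfrsf1b, with black diamonds for edgeR on all 6 libraries, red and blue points for fits without an LSK-derived or a GMP-derived library, grey crosses for the other fits and a dashed line at 0.05. All marks of Tnfsf11, Tnfrsf22 and Tnfsf8 lie above the line, while those of Tnfsf12 and Tnfrsf12a lie on both sides of it.

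The receptors of TNF itself, Tnfrsf1a and Tnfrsf1b, were not called, with lower group means in the LSK-derived libraries. Tnfrsf1a carries a death domain and is the main TNF receptor of most cells. It was at 75.1, 92.5 and 69.9 CPM in LSK-derived libraries 44, 45 and 46 and at 94.5, 113 and 148 CPM in GMP-derived libraries 5, 11 and 19. The groups did not overlap, though LSK 45 and GMP 5 were close (log2 fold change -0.58 ± 0.18, 1.5-fold, adjusted p = 0.0594). It was called without GMP 5 (log2 fold change -0.73, adjusted p = 0.0287), without LSK 45 (adjusted p = 0.0499), with DESeq2 (adjusted p = 0.00963) and with limma voom sample weights (adjusted p = 0.0201). Tnfrsf1b lacks a death domain and recruits TRAF2. It was at 59.6, 88.7 and 53.8 CPM and 64.7, 111 and 145 CPM in the same order, so that LSK 45 lay inside the GMP-derived range and GMP 5 inside the LSK-derived one (log2 fold change -0.66 ± 0.32, adjusted p = 0.181). Without GMP 5 its log2 fold change was -0.93 (adjusted p = 0.0428).

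Tnfrsf21 encodes death receptor 6. Its values were 63.6, 61.8 and 61.6 CPM in LSK-derived libraries 44, 45 and 46 and 74.9, 55.3 and 61.8 CPM in GMP-derived libraries 5, 11 and 19 (log2 fold change -0.04 ± 0.11, adjusted p = 0.840). The LSK-derived libraries spanned a narrow range that lay inside the GMP-derived one. Tnfrsf13b encodes TACI, a receptor of BAFF and APRIL best known from B cells. It was at 102, 117 and 105 CPM and 94.5, 99.0 and 104 CPM (log2 fold change 0.12 ± 0.08, adjusted p = 0.308), overlapping at the lower end of the LSK-derived libraries. Of 11 B and plasma cell markers, 8 were below 1 CPM in both group means, and Ms4a1 and Pax5 had 0 counts in every library. Cd79b was called, higher in the LSK-derived libraries (18.1 ± 3.73 against 5.45 ± 2.07 CPM, edgeR adjusted p = 0.00948). Sdc1 (20.6 ± 6.96 against 8.32 ± 8.28 CPM) and Xbp1 (396 ± 66.9 against 372 ± 16.6 CPM) were not called. The part of such cells in the level of Tnfrsf13b was not tested. The other receptors of the BAFF and APRIL system, Tnfrsf13c (BAFF receptor) and Tnfrsf17, were too low to be tested, with 0.150 ± 0.0893 against 0.0393 ± 0.0341 CPM and 0.0678 ± 0.0632 against 0.0569 ± 0.0264 CPM.

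Of the receptors best known as costimulators of lymphocytes, Tnfrsf14 and Tnfrsf18 had groups that did not overlap but were not called by edgeR. Tnfrsf14 encodes HVEM, a receptor of LIGHT, and was at 10.0, 13.0 and 9.83 CPM in LSK-derived libraries 44, 45 and 46 and at 2.62, 6.44 and 6.51 CPM in GMP-derived libraries 5, 11 and 19, with GMP 5 the lowest (log2 fold change 1.07 ± 0.35, 2.10-fold, adjusted p = 0.0614). It was called without GMP 5 (log2 fold change 0.75, adjusted p = 0.0299), with DESeq2 (adjusted p = 0.0160), with limma voom (adjusted p = 0.0478) and with sample weights (adjusted p = 0.0393). Tnfrsf18 encodes GITR and was at 4.23, 5.10 and 4.67 CPM and 2.87, 2.43 and 3.87 CPM in the same order (log2 fold change 0.61 ± 0.23, adjusted p = 0.0916). It was called only with sample weights (adjusted p = 0.0357). Gm16008 overlaps it on the opposite strand and was at 1.45, 1.37 and 1.87 CPM and 0.943, 0.920 and 0.938 CPM. Tnfrsf8, which encodes CD30, the receptor of the Tnfsf8 product, was at 3.27, 6.59 and 8.04 CPM and 2.87, 7.30 and 6.30 CPM (log2 fold change 0.12 ± 0.44, adjusted p = 0.863). LSK 44 and GMP 5 were the low libraries in their groups. Tnfrsf4, which encodes OX40, was at 1.09, 1.02 and 1.37 CPM and 1.15, 1.31 and 1.20 CPM (log2 fold change -0.07 ± 0.24, adjusted p = 0.856), so all 6 libraries lay close together. Tnfrsf11a, which encodes RANK, the signalling receptor of RANKL, averaged 0.678 ± 0.225 against 0.838 ± 0.202 CPM with overlapping groups (log2 fold change -0.34 ± 0.34, adjusted p = 0.510).

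The 10 untested members were at most at 0.645 CPM in any library. Tnfrsf11b, which encodes the RANKL decoy osteoprotegerin, had 0 counts in all 6 libraries. Tnfsf15 and Tnfsf18 each had 1 count, in LSK 45. Tnfrsf9 had 3 counts over the LSK-derived and 18 over the GMP-derived libraries, a ratio of 4.49 with an exact counting interval of 1.54 to 21.8. Tnfsf4, the OX40 ligand, had 11 counts over the LSK-derived and 3 over the GMP-derived libraries, a ratio of 4.98 with an interval of 1.70 to 24.1. Those intervals take in only the counting error of the group with fewer counts. Tnfrsf25, a death domain receptor, averaged 0.276 ± 0.0826 against 0.222 ± 0.0657 CPM, and Tnfrsf19 averaged 0.0987 ± 0.122 against 0.0963 ± 0.0466 CPM.

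Levels of different genes were set side by side as CPM per kilobase of exon, using GENCODE M21 exon lengths for all 31 members. On this scale Tnfrsf1a (30.6 ± 4.57 against 45.8 ± 10.5) and Tnfrsf13b (38.0 ± 2.76 against 35.0 ± 1.76) were the highest members, and their order differed between the groups. Tnfrsf1b (17.6 ± 4.89 against 27.9 ± 10.5) and Tnfrsf21 (15.2 ± 0.277 against 15.6 ± 2.43) came next. Their means were closer together than the SD of Tnfrsf1b in the LSK-derived libraries and further apart than it in the GMP-derived ones. Tnfsf14 was the most abundant ligand (5.12 ± 0.657 against 6.58 ± 2.04), and Tnfrsf14 (7.63 ± 1.24 against 3.61 ± 1.55) lay above it in the LSK-derived libraries and below it in the GMP-derived ones. Of the decoy receptor cluster, Tnfrsf22 (2.41 ± 0.294 against 5.25 ± 0.374) and Tnfrsf26 (3.04 ± 0.459 against 5.23 ± 0.186) lay above the TRAIL death receptor Tnfrsf10b (1.08 ± 0.175 against 1.09 ± 0.210) in both groups. The decoy Tnfrsf23 (0.595 ± 0.345 against 3.33 ± 2.09) had a mean below that of Tnfrsf10b in the LSK-derived libraries and above it in the GMP-derived ones. Tnfsf11 was at 0.845 ± 0.193 against 0.00880 ± 0.00762, Tnfsf13b at 0.0426 ± 0.0288 against 0.284 ± 0.109 and Tnfsf8 at 0.222 ± 0.0572 against 0.0294 ± 0.0178. In the LSK-derived libraries the SDs of Tnfsf11 and Tnfrsf10b overlapped.

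**Figure D4:**
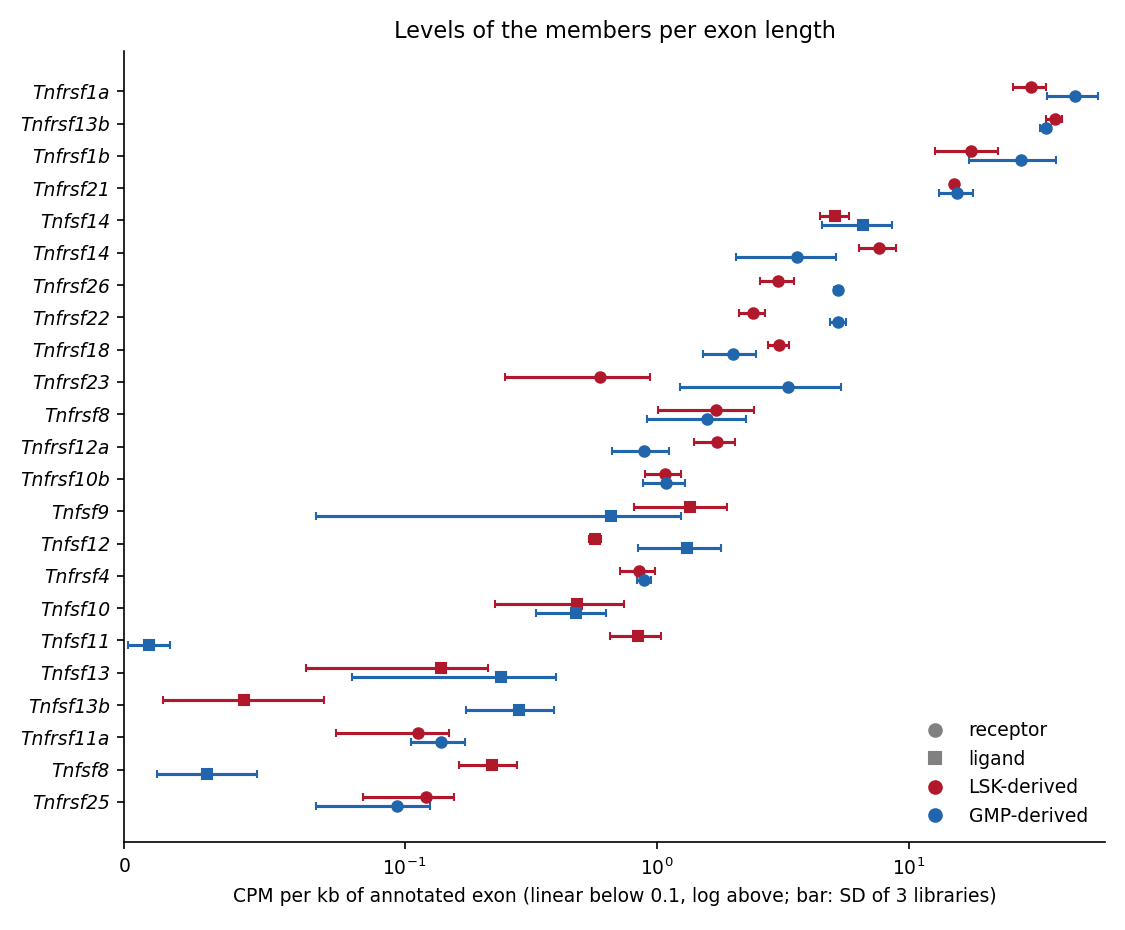
Group means of CPM per kilobase of exon are drawn for the higher members in order of their mean over both groups, on an axis that is linear below 0.1 and logarithmic above, with bars of 1 SD (n = 3), squares for ligands and circles for receptors. Tnfrsf1a, Tnfrsf13b, Tnfrsf1b and Tnfrsf21 lie at the top, and Tnfsf14 is the first ligand in the order.

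Of 15 superfamily genes without either prefix, 6 were tested and 2 were called, both higher in the GMP-derived libraries (33.3%, median log2 fold change -0.08). Fas, the death receptor of Fas ligand, was at 0.907, 1.49 and 0.833 CPM in LSK-derived libraries 44, 45 and 46 and at 4.63, 2.73 and 5.37 CPM in GMP-derived libraries 5, 11 and 19, with no overlap (log2 fold change -1.96 ± 0.36, 3.89-fold, adjusted p = 0.00984). The call held in every alternative fit. Ltbr, the lymphotoxin beta receptor and the other receptor of LIGHT, was at 61.9, 66.2 and 58.0 CPM and 78.0, 87.8 and 97.7 CPM (log2 fold change -0.50 ± 0.10, 1.42-fold, adjusted p = 0.0133). Its adjusted p was 0.0547 without LSK 44 and 0.0574 without LSK 46. Fasl, Cd70 and Edar had 0 counts in all libraries. Tnf itself, named here after its values were seen, was at 9.74, 6.99 and 8.75 CPM and 7.70, 9.50 and 8.68 CPM (log2 fold change -0.03 ± 0.17, adjusted p = 0.928), and its groups overlapped.

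Downstream of the receptors, 8 of 19 tested adaptors were called, 4 in each direction (42.1%, median 0.03). Those with the smallest p were Mlkl, the effector of necroptosis (138 ± 22.0 against 69.1 ± 6.77 CPM, log2 fold change 1.00 ± 0.13, adjusted p = 0.00308), and Traf4 (12.7 ± 1.79 against 5.93 ± 0.855 CPM, 1.09 ± 0.17, adjusted p = 0.00593), both higher in LSK-derived libraries, and Tank, a TRAF-binding protein (48.1 ± 5.14 against 80.6 ± 6.57 CPM, -0.74 ± 0.10, adjusted p = 0.00380), and Traf5 (1.53 ± 0.373 against 3.92 ± 0.731 CPM, -1.35 ± 0.26, adjusted p = 0.0119), both lower. The call of Traf5 was lost without LSK 44 (adjusted p = 0.0525). Of 20 tested genes of the ubiquitin and kinase relay, 2 were called (10.0%, median 0.03), both higher in LSK-derived libraries. These were Map3k5, which encodes the stress kinase ASK1 (21.7 ± 4.89 against 3.94 ± 1.26 CPM, 2.46 ± 0.27, adjusted p = 0.00182), and Ikbkb, a kinase of the NF-kB inhibitor (126 ± 6.79 against 93.0 ± 6.07 CPM, 0.43 ± 0.08, adjusted p = 0.00865). Of 7 tested genes of ligand and receptor shedding, 1 was called (14.3%, median 0.17). That was Adam17, the protease that releases TNF (374 ± 115 against 206 ± 47.5 CPM, 0.86 ± 0.25, adjusted p = 0.0494), and its call was lost without any single library other than GMP 5 (adjusted p between 0.0656 and 0.154). The shedding genes Adam10 and Erap1 were not called (adjusted p = 0.0758 and 0.853).

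Of 5 tested NF-kB subunits, Nfkb1 was called higher in the LSK-derived libraries (223 ± 22.8 against 157 ± 5.67 CPM, log2 fold change 0.51 ± 0.09, adjusted p = 0.00788), which is 20.0%, and the list's median was 0.18. Rela and Nfkb2 were not called (adjusted p = 0.985 and 0.403). Of 18 tested genes known to be induced by TNF through NF-kB, 4 were called, all higher in the GMP-derived libraries (22.2%, median -0.23). They were Gadd45b, a stress response gene (8.18 ± 0.353 against 22.3 ± 3.52 CPM, -1.45 ± 0.14, adjusted p = 0.00116), the costimulatory ligand Icosl (10.7 ± 0.337 against 26.6 ± 4.32 CPM, -1.31 ± 0.14, adjusted p = 0.00164), the adhesion molecule Icam1 (14.2 ± 3.37 against 36.3 ± 4.84 CPM, -1.35 ± 0.19, adjusted p = 0.00364) and the chemokine Cxcl10 (0.254 ± 0.120 against 1.86 ± 0.970 CPM, -2.90 ± 0.55, adjusted p = 0.0112). Of those 18 targets, 7 had a positive log2 fold change. With limma voom sample weights, 2 targets were called higher in the LSK-derived libraries, and without GMP 19, 1 was. The shares called in the relay, shedding, subunit and target lists were below the 25.7% of all tested genes, and those in the adaptor and no-prefix lists above it. Some genes, such as Tnfaip3 and Birc3, are in more than 1 list.

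**Figure D5:**
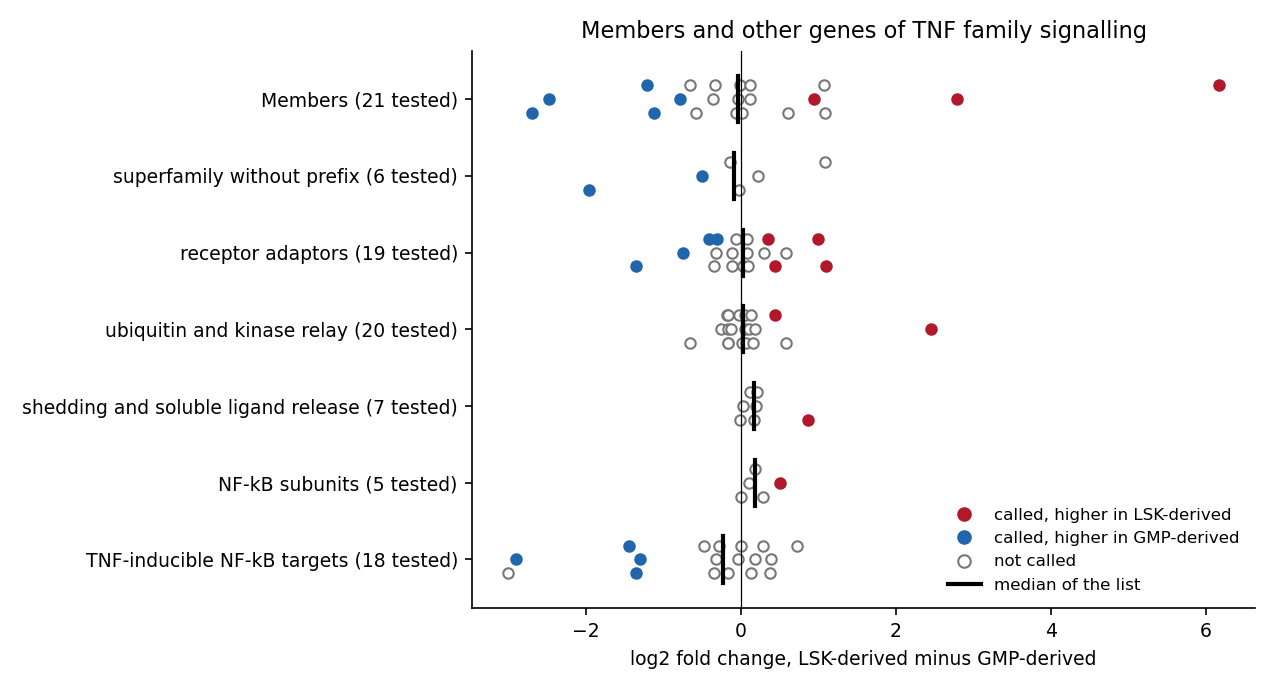
Log2 fold changes of the tested genes of the superfamily and of each pathway list are drawn as points on a linear axis, coloured by call, with a thick line at each list's median. The medians lie between -0.23 and 0.18, and the called NF-kB targets are all on the side of the GMP-derived libraries.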

How the data were processed

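RNA was extracted with TRIzol and sequenced from TruSeq libraries, per the labels' protocols. The authors deposited 1 table of raw counts per gene symbol for 6 libraries. The submitters' processing notes list mm9 as the build and STAR 2.4, HTSeq 0.6.1 and DESeq2 as tools. An annotation and a strand setting were not found in these sources. The main test was that of edgeR 4.0.16, run in R 4.3.3 (filterByExpr, TMM, robust quasi-likelihood fit, LSK-derived against GMP-derived, no covariate), with Benjamini-Hochberg adjustment over 13406 genes and a threshold of 0.05. CPM are counts per 1000000 of the TMM-scaled library size, SEs are approximate (size of the log2 fold change over the root of F), and the script was tested on simulated data.

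Alternatives were DESeq2 1.42.0, upper-quartile scaling, no filter, limma 3.58.1 voom with and without sample weights, a 1.5-fold minimum, and leaving out each library. Described in full are members called, or tested with a mean of at least 1 CPM in a group. Of each pathway list, all called genes are named where 5 or fewer, otherwise the 4 with the smallest p, plus up to 2 with the highest mean where fewer than 2 are called. The members and lists were chosen with earlier results of these data known. For the lists, 5 genes were found under another symbol. Exon lengths and shared sequence came from GENCODE M21 (GRCm38) and promoters from RefSeq (GRCm38.p6), a different build from mm9, so no position was transferred between builds.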

Additional observations from a re-analysis of the deposited data

How the results depend on the processing

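The groups share no replicate numbers. No paired analysis was possible because the labels number the LSK-derived libraries 44, 45 and 46 and the GMP-derived ones 5, 11 and 19. Of the 8 called members, 3 (Tnfsf11, Tnfsf8 and Tnfrsf22) kept their call in all 12 alternatives and 4, with Tnfrsf26, in all fits that left out 1 library. The number of members called was 10 with DESeq2, 8 with upper-quartile scaling, 7 with no filter, 8 with limma voom and 11 with sample weights. In the same order, 4151, 3483, 3296, 3338 and 4226 of all genes were called. The fit with no filter tested 21599 genes and 30 members, and the others 13406 genes and 21 members.

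With a 1.5-fold minimum the counts called were 1003 of all genes, 4 members, 1 receptor, 1 gene without the prefix, 2 adaptors, 1 relay gene, 0 shedding genes and 0 NF-kB subunits (edgeR, with 0 and 0 at an unadjusted p below 0.05; the shedding list had 2 calls with DESeq2). Sample weights called 7 receptors and 2 shedding genes, and with no filter 0 shedding genes were called, 2 at an unadjusted p below 0.05. Leaving out 1 library gave 1750 to 3467 genes, 4 to 10 members, 2 to 4 ligands, 2 to 6 receptors, 1 to 2 genes without the prefix, 4 to 7 adaptors, 2 to 4 relay genes and 0 to 1 shedding genes. The count of all genes was 1830 without LSK 44 and 1750 without LSK 46.

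Only uncalled genes changed sign. Leaving out 1 library gave log2 fold changes of -0.16 to 0.14 for Tnfrsf10b, -0.13 to 0.08 for Tnfrsf21, -0.21 to 0.02 for Tnfrsf4, -0.19 to 0.41 for Tnfrsf8, -0.45 to 0.33 for Tnfsf10, -0.02 to 0.09 for Erap1 and -0.14 to 0.11 for Rela. Upper-quartile scaling gave 0.01 for Tnfrsf10b and 0.02 for Rela. Voom gave 0.02 for Tnfrsf10b, -0.04 for Tnfsf10 and 0.00 for Rela, and sample weights gave 0.06 for Tnfrsf21, -0.14 for Tnfrsf8 and -0.40 for Tnfsf10. The cause of these shifts was not tested. Members that did not reach about 0.400 CPM in 3 libraries were left out of the main fit by the filter on low counts.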
